A study of Saccharomyces cerevisiae with 36 samples.

Results

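The genes described here are 10 yeast genes that sense oxygen and haem or answer to them, taken by name from the 6717 genes of the deposited tables. There are 6 regulators, ROX1 (YPR065W), HAP1 (YLR256W), MOT3 (YMR070W), UPC2 (YDR213W), SUT1 (YGL162W) and MGA2 (YIR033W), and 4 targets, OLE1 (YGL055W), HEM13 (YDR044W), ANB1 (YJR047C) and AAC3 (YBR085W). In the deposited tables (sacCer2) each has 1 exon and overlaps no other gene. Saccharomyces cerevisiae reads oxygen mainly through haem and sterols, whose synthesis needs oxygen. When haem is plentiful, the activator Hap1 switches on respiratory genes and the repressor Rox1, and Rox1, helped by Mot3 and the Tup1-Cyc8 corepressor, keeps the hypoxic genes off. When oxygen runs out, that repression is lifted, while Upc2 and Sut1 turn on sterol uptake and Mga2, freed from the membrane, turns on the fatty acid desaturase gene OLE1. Grape must under fermentation is a setting that can bear on these genes, because cells need sterols and unsaturated fatty acids from whatever oxygen is at hand.

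The study grew 2 wine strains of S. cerevisiae in Nebbiolo must, strain 12 (dominant) and strain 11 (non-dominant), each alone (single culture) or together (mixed culture). Both strains carried a fluorescent protein, GFP or eSapphire, and cells of all cultures, single ones included, were sorted by it before RNA was extracted, amplified and sequenced. The 36 libraries form 12 groups of 3: strain 12 mixed, strain 12 single, strain 11 mixed and strain 11 single, each at 12 h (start of exponential growth), 20 h (mid exponential growth) and 30 h (start of stationary phase). Fermentations were run in triplicate with the markers also swapped between the strains, but the labels do not say which library had which marker, and each strain is a single isolate. The fermentations were shaken throughout, and oxygen and haem were not measured.

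Each library held between 35400 and 530376 reads on genes (median 125756.5). The 12 h libraries were the deepest, with a median of 230090 reads, against 88929 at 20 h and 91418.5 at 30 h. Strain 12 mixed culture went against this order at 20 h, with 341452, 227200 and 123119 reads, against 148542, 218761 and 241419 at 12 h. Correlations between replicate libraries ran from 0.719 to 0.949. A sorted fraction can also hold RNA of the other strain. In mixed cultures, 3 retrotransposon genes that had no read in strain 12 single cultures had 0 to 6 reads per strain 12 library, or 0 to 16.5% of their level in strain 11 single cultures. In strain 11 mixed cultures the same 3 genes stood at 6.75 to 80.1% of that level. SSU1, which marks strain 12, stood in strain 11 mixed cultures at 4.32 to 27.9% of its level in strain 12 single cultures, against 0 to 2.60% in strain 11 single cultures. In strain 12 mixed cultures SSU1 stood at 96.0 to 148% of its strain 12 single level at 12 h. It stood there at 41.5 to 63.8% at 20 h and at 50.3 to 76.0% at 30 h. Set against strain 12 mixed culture, the strain 11 mixed percentages at 20 and 30 h would thus be higher. A lower level of a gene in the cells of a fraction and a share of RNA from other cells in that fraction cannot be told apart in such bulk samples.

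Levels per gene length were compared as RPKM (reads scaled to gene length in kilobases and to M reads of the library), and levels of 1 gene between libraries as CPM (reads per M reads, scaled by edgeR's TMM factors). OLE1, which makes the double bond of yeast's unsaturated fatty acids, had by far the highest RPKM of the 10 genes, with a median of 2115 over the 36 libraries (1318 to 4159.7). ROX1 followed with a median of 426 RPKM, a level above that of 95.4% of all genes. HEM13, coproporphyrinogen oxidase, an oxygen-using step of haem synthesis, had a median of 266 RPKM and HAP1 one of 163. MOT3 stood at 126 RPKM, MGA2 at 77.6 and UPC2 at 27.8. The ranges of neighbouring genes in this order overlapped over the libraries, except that the lowest OLE1 value (1318) lay above the highest ROX1 value (1124). The remaining 3 genes were near the detection limit. SUT1 had a median of 8.49 RPKM, AAC3 one of 6.28, and ANB1 was at 0 in 19 of 36 libraries. ANB1 and AAC3 are the hypoxic copies of aerobic genes, and the aerobic partners TIF51A (translation factor eIF5A) and PET9 (the main ADP/ATP carrier) had medians of 5155 and 745 RPKM in the same libraries.

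**Figure D1:**
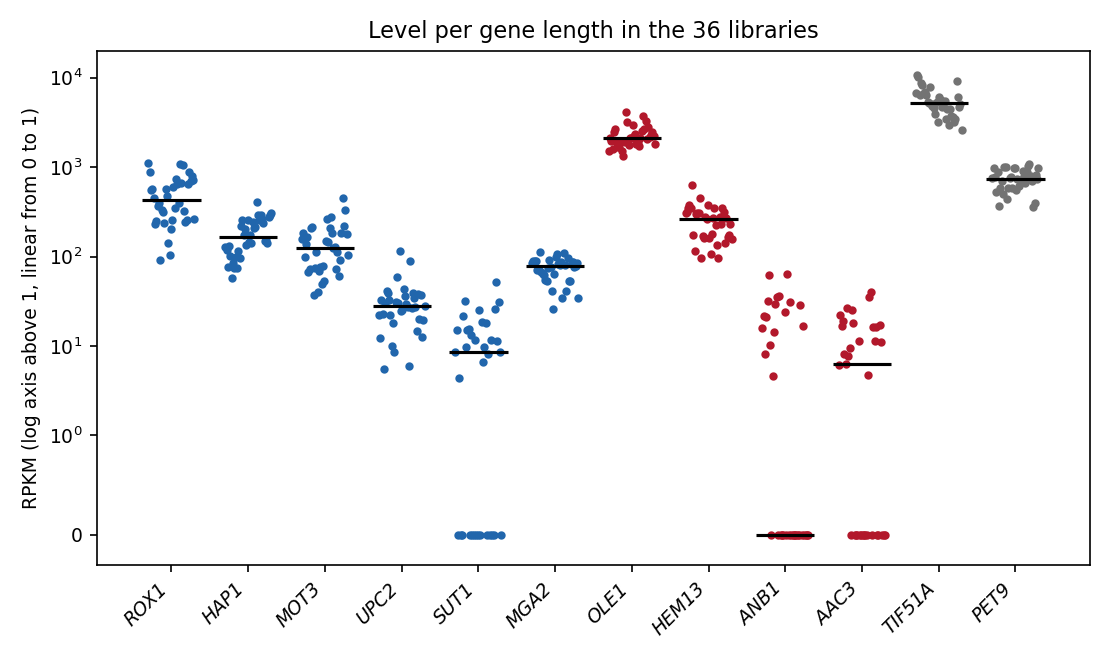
RPKM in each of the 36 libraries (points) with the median (line), for the regulators (blue), the targets (red) and the aerobic partners of ANB1 and AAC3 (grey). The axis is logarithmic above 1 and linear from 0 to 1, and SUT1, ANB1 and AAC3 were at 0 in 14, 19 and 16 libraries.

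Rox1 acts through short sites before its target genes. Those with the core ATTGTTC within 500 bases before the start codon are shown here to place the repressor beside the targets measured, with the core in capitals, each read 5′ to 3′ on the strand that carries it. They are credited to RefSeq's R64 assembly, a later one than the sacCer2 build of the deposited tables.
HAP1, chrXII:646158-646182, plus strand: acagacgctATTGTTCtcccaaaga
HAP1, chrXII:646392-646414, minus strand: ctaacctATTGTTCccttttttt
OLE1, chrVII:398492-398516, plus strand: gattcatttATTGTTCtatttccat
HEM13, chrIV:546451-546475, plus strand: gctttgcccATTGTTCtcgtttcga
ANB1, chrX:525678-525702, minus strand: cgtttttccATTGTTCgttcgttgc
ANB1, chrX:525647-525671, minus strand: tttcgccctATTGTTCtcgagccta
ANB1, chrX:525580-525604, minus strand: tcctattccATTGTTCtctttggta
The search covered both strands, and 711 of 6008 genes (11.8%) had at least 1 such core in the same window. The longer form ATTGTTCTC, which contains the core, was found before HAP1, HEM13 and ANB1 (2 copies) and before 1.13% of all genes. No core was found in the windows of ROX1, MOT3, UPC2, SUT1, MGA2 or AAC3. The sterol element TCGTTTA, which Upc2 binds, was found before UPC2, HEM13 and AAC3 (1 copy each) and HAP1 (2 copies), and before 8.8% of all genes, while its other form TCGTATA was found before none of the 10. A match of letters is a description of the reference strain, and the sequences of strains 11 and 12 were not analysed here.

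The tests below compare the 3 libraries of a group with those of another, by edgeR's quasi-likelihood test over the 3670 genes that passed a filter on low counts, and a gene is called where the Benjamini-Hochberg adjusted p is at most 0.05. Of the 10 genes, 7 passed the filter (all but SUT1, ANB1 and AAC3). By the paper's methods, fermentations were in triplicate and aliquots were taken at 3 phases. Libraries of different times, and both strain fractions of a mixed culture, may thus share a fermentation, which the labels do not say. The fit treats all 36 libraries as independent, averages over the times included, so the p-values measure the spread between these libraries.

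ROX1 (chromosome XVI, 679690 to 680796) set the strains apart when they grew alone. In single culture ROX1 had 652, 532 and 289 CPM at 12 h in strain 12, against 1303, 1032 and 661 CPM in strain 11. At 20 h it had 182, 113 and 237 CPM in strain 12, against 284, 664 and 559.7 CPM in strain 11. At 30 h the values were 371, 289.9 and 285 CPM in strain 12, against 1218, 783 and 1257 CPM in strain 11. The libraries of the strains did not overlap at any of the 3 times, as held for 9.95, 11.1 and 12.9% of all genes tested at 12, 20 and 30 h. The log2 fold change of strain 12 over strain 11 was -1.01 (SE 0.36) at 12 h, -1.40 (SE 0.45) at 20 h and -1.76 (SE 0.40) at 30 h, and by edgeR the adjusted p was 0.331, 0.240 and 0.0144. Averaged over the times, a contrast added after the values had been seen, ROX1 was lower in strain 12 by a log2 fold change of -1.39 (95% interval -1.86 to -0.92, adjusted p = 4.18e-05, where 1.47% of all genes were called). That average kept its call under all 27 alternative settings. The call at 30 h was lost with limma on log2 RPKM (adjusted p = 0.0848 and 0.0921 at pseudocounts 1 and 0.1), and without strain 11 replicate 1 or 3 (adjusted p = 0.100 and 0.0701) or strain 12 replicate 1, 2 or 3 (0.0612, 0.0794 and 0.129).

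In mixed culture no such gap was seen. ROX1 had 116, 401 and 391 CPM at 12 h in strain 12, against 264, 394 and 427 CPM in strain 11. At 20 h it had 798, 689.8 and 439.6 CPM in strain 12, against 289, 653 and 374 CPM in strain 11, and at 30 h 897, 795 and 294 CPM in strain 12, against 717, 962 and 741 CPM in strain 11. The strains overlapped at every time, and the average difference was 0.04 on the log2 scale with a 95% interval of -0.39 to 0.47. Over the 6 comparisons of strain 12 with strain 11, each with 7 genes tested, the fall of ROX1 in single culture at 30 h was the only call (1 of 42, or 2.38%, where 1.38% of all genes tested were called, and 0.518% at that time and culture). At an unadjusted p under 0.05 there were 10 of 42.

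Between mixed and single culture, the called changes of ROX1 ran in opposite directions in the strains. In strain 11 at 12 h it was lower in mixed culture (log2 fold change -1.46, SE 0.36, adjusted p = 0.00464 by edgeR), with a mean of 362 ± 86.2 CPM in mixed culture and 999 ± 322 CPM in single culture (SD, n = 3 each). At 20 and 30 h the difference in strain 11 was -0.20 and -0.41 (adjusted p = 0.859 and 0.615). In strain 12 ROX1 was higher in mixed culture at 20 h by 1.79 on the log2 scale (SE 0.43, adjusted p = 0.0191), with 642 ± 184 CPM in mixed culture and 177 ± 62.3 CPM in single culture. That single-culture level rests on 15, 4 and 20 reads. At 12 h the strain 12 value was -0.68 (adjusted p = 0.385) and at 30 h 1.11 (adjusted p = 0.416). The groups did not overlap in either called comparison, as held for 31.3% of all genes tested in strain 11 at 12 h and 22.6% in strain 12 at 20 h. Of all genes tested, 8.61% were called in strain 11 at 12 h and 1.28% in strain 12 at 20 h.

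The difference between the strains' responses was tested directly at 12, 20 and 30 h, and none of the 7 genes was called, ROX1 included. Of all genes tested, 1.17, 0.0817 and 0.0272% were called at these times. Responses were also compared between times within a strain. In strain 12 the response of ROX1 to mixed culture was 2.47 higher at 20 h than at 12 h on the log2 scale (SE 0.57, adjusted p = 0.00840 by edgeR, where 2.45% of all genes were called), and this call held under all 21 alternatives, adjusted p 0.000187 to 0.0435. Averages over the times were added after the values had been seen here too. The response averaged over the times was -0.69 in strain 11 (adjusted p = 0.0220, where 14.7% of all genes were called) and 0.74 in strain 12 (adjusted p = 0.0822). Their difference, strain 11 minus strain 12, was -1.43 (SE 0.32, adjusted p = 0.00599, where 2.53% of all genes were called), and on log2 RPKM with limma it was -1.26 with an adjusted p of 0.113 or 0.130. The strain 11 average lost its call without single replicate 1 or mixed replicate 1 at 12 h (adjusted p = 0.0584 and 0.0530), single replicate 2 or mixed replicate 1 or 3 at 20 h (0.0696, 0.0776 and 0.0621) or mixed replicate 3 at 30 h (0.0507), and with limma (0.185 and 0.201). The strain 12 average gained a call without mixed replicate 1 at 12 h (0.0261), single replicate 1 at 12 h (0.0338) or mixed replicate 3 at 30 h (0.0266). With all libraries it gained one with no filter (0.0197) and with DESeq2 (0.0495). The part of RNA carried over from the other strain in these ROX1 values was not tested.

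**Figure D2:**
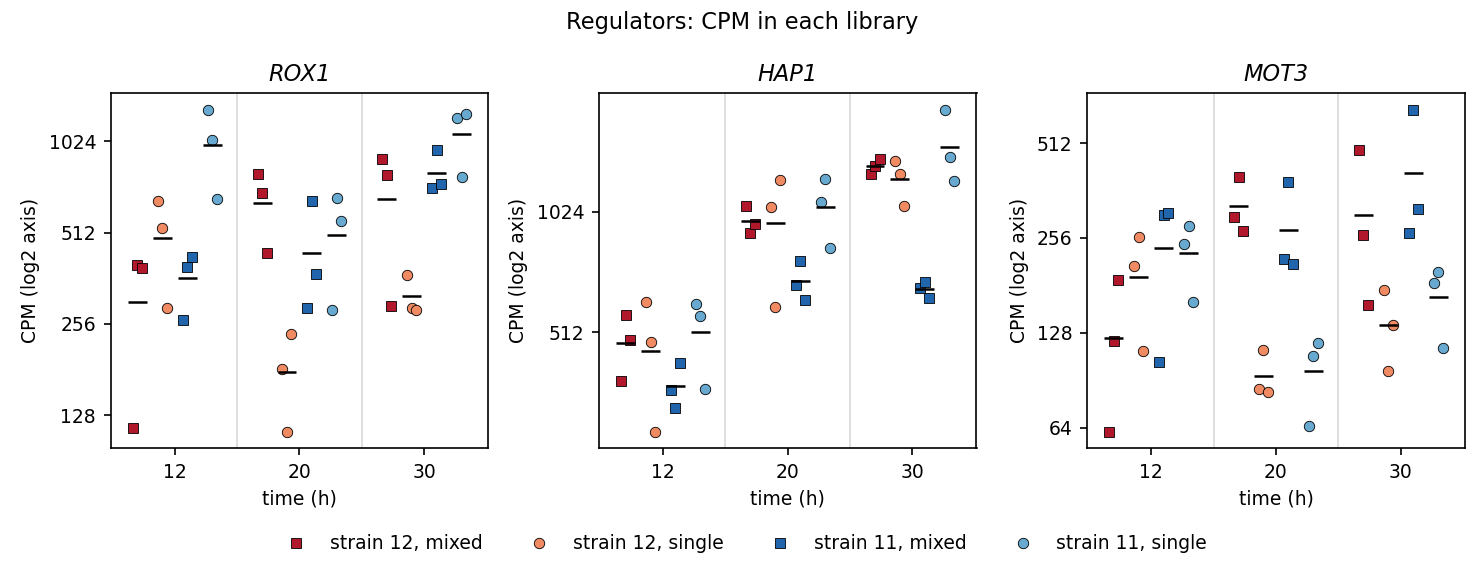
CPM of ROX1, HAP1 and MOT3 in each library on a log2 axis, by time, with strain 12 mixed, strain 12 single, strain 11 mixed and strain 11 single from left to right at each time (points: 3 libraries, line: mean). ROX1 of strain 12 single culture lies below that of strain 11 single culture at each time, and HAP1 lies higher at 20 and 30 h than at 12 h, with strain 11 mixed culture lowest at 30 h (655 CPM).

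MOT3 (chromosome XIII, 409153 to 410625), a repressor that acts with Rox1, was higher in mixed culture in strain 12 at 20 h and, on average over the times, in strain 11. In strain 12 at 20 h it had 298, 401 and 269 CPM in mixed culture, against 84.8, 113 and 83.0 CPM in single culture. The groups did not overlap (as held for 22.6% of all genes tested), and the log2 fold change was 1.84 (SE 0.49, adjusted p = 0.0398 by edgeR), but the single-culture libraries held only 7, 4 and 7 reads of the gene. In strain 11 at 20 h the values were 219.8, 386 and 211 CPM in mixed culture, against 64.6, 108 and 119 CPM in single culture, a log2 fold change of 1.48 with an adjusted p of 0.0805. At 30 h the log2 fold change was 1.29 in strain 11 (adjusted p = 0.0812) and 1.19 in strain 12 (0.474). At 12 h it was 0.06 in strain 11 and -0.60 in strain 12. The average over the times, added after the values had been seen, was 0.94 in strain 11 (SE 0.26, adjusted p = 0.00694, where 14.7% of all genes were called). It was 0.81 in strain 12 (adjusted p = 0.108), and the difference of the strains' responses was 0.13 with a 95% interval of -0.62 to 0.88. In strain 12 the response of MOT3 at 20 h exceeded that at 12 h by 2.44 (SE 0.65, adjusted p = 0.0292). This call was lost without single replicate 1 or 2 or mixed replicate 1 at 12 h (adjusted p = 0.0693, 0.0735 and 0.106) and without single replicate 1 or 3 or mixed replicate 2 at 20 h (0.0747, 0.0807 and 0.0953), and with limma (0.0507 and 0.0544). Of 49 tests of a difference between responses, those of ROX1 and MOT3 in strain 12 between 20 and 12 h were the calls (2 of 49, or 4.08%, where 1.39% of all genes tested were called).

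HAP1 (chromosome XII, 646417 to 650925), the haem-dependent activator, was lower in mixed than in single culture in strain 11, at 30 h and on average over the times. At 30 h it had 659, 685 and 622 CPM in strain 11 mixed culture, against 1845, 1404 and 1224 CPM in strain 11 single culture. The groups did not overlap (as held for 18.8% of all genes tested), with a log2 fold change of -1.19 (SE 0.29, adjusted p = 0.0101 by edgeR, where 3.81% of all genes were called). At 12 and 20 h the difference was -0.44 and -0.62 (adjusted p = 0.399 and 0.254). The average over the times, added after the values had been seen, was -0.75 (SE 0.17, adjusted p = 0.000863, where 14.7% of all genes were called). In strain 12 HAP1 differed between mixed and single culture by 0.05, -0.01 and 0.11 at 12, 20 and 30 h, with 95% intervals within -0.59 and 0.68. The difference of the strains' responses, averaged over the times, was -0.80 with an adjusted p of 0.0509, and 0.00587 by DESeq2. Averaged over the times in mixed culture, HAP1 was higher in strain 12 than in strain 11 by 0.63 (SE 0.17, adjusted p = 0.00874, where 9.75% of all genes were called), and in single culture the difference was -0.17 (adjusted p = 0.818). HAP1 is a long gene of 4508 bases, and the 147 tested genes of 4000 to 6000 bases had a median log2 fold change of -0.31 in the comparison at 30 h in strain 11, against -0.02 over all genes. The part of gene length in the HAP1 result was not tested.

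Altogether 4 of 42 tests of mixed against single culture called a gene of the list (9.52%, where 3.58% of all genes tested were called), 2 higher and 2 lower, and 11 of 42 had an unadjusted p under 0.05. All 4 concern ROX1, HAP1 or MOT3. Each of them depends on single libraries at n = 3. ROX1 in strain 11 at 12 h had an adjusted p of 0.144 and 0.158 with limma on log2 RPKM (pseudocount 1 and 0.1) and 0.0542 by edgeR without mixed replicate 1. HAP1 in strain 11 at 30 h had 0.0813 without single replicate 1, 0.0709 without mixed replicate 2 and 0.0585 without mixed replicate 3. ROX1 in strain 12 at 20 h had 0.0953 and 0.0807 without single replicate 1 or 2, and 0.0912 and 0.0775 without mixed replicate 1 or 2. MOT3 there had 0.0731 with the replicate number as a block and 0.0715 to 0.248 without any of single replicates 1 to 3 or mixed replicates 1 and 2. No left-out library turned a direction.

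**Figure D3:**
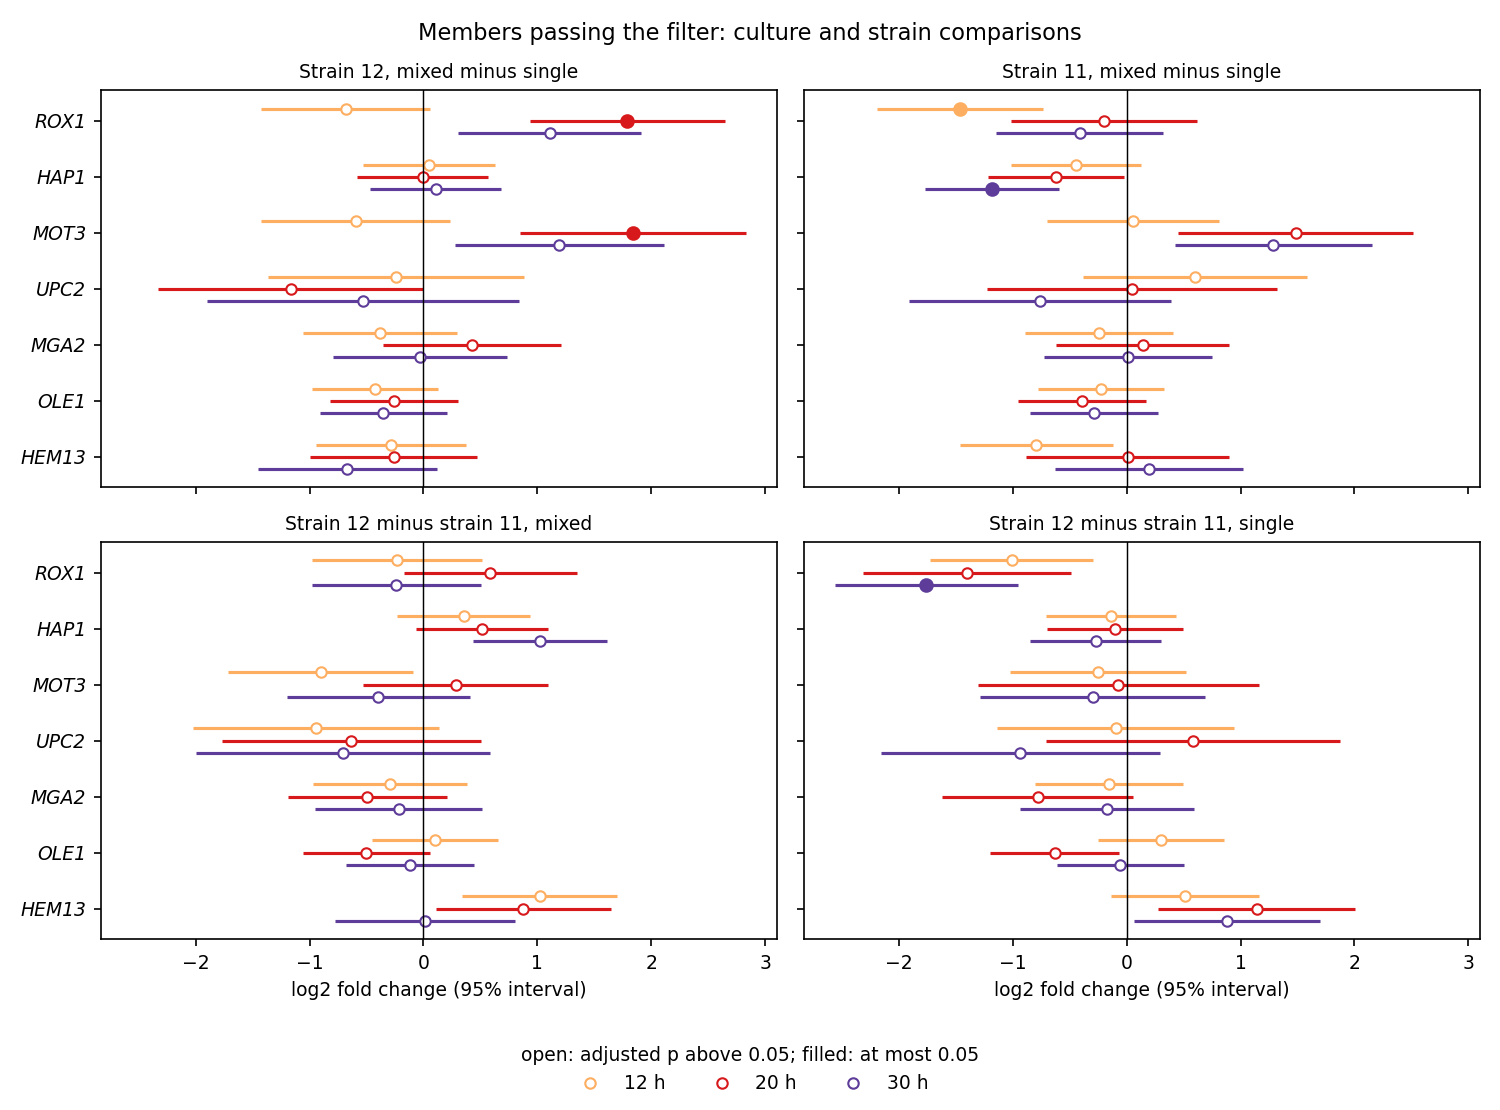
Log2 fold changes with 95% intervals of the 7 genes that passed the filter, for mixed minus single culture (upper panels, strain 12 left and strain 11 right) and strain 12 minus strain 11 (lower panels, mixed left and single right), at 12, 20 and 30 h. Filled points mark an adjusted p of at most 0.05 by edgeR, which were ROX1 and MOT3 at 20 h in strain 12, ROX1 at 12 h and HAP1 at 30 h in strain 11, and ROX1 at 30 h between the strains in single culture.

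HAP1 was higher at 20 and 30 h than at 12 h in strain 12 mixed, strain 12 single and strain 11 single culture. In strain 12 mixed culture it had 388, 566 and 489.8 CPM at 12 h, 1062, 909.6 and 953 CPM at 20 h, and 1272, 1336 and 1392 CPM at 30 h. No library overlapped between these times, as held for 42.3% of all genes tested at 20 over 12 h, 12.4% at 30 over 20 h and 34.7% at 30 over 12 h. The log2 fold change over 12 h was 1.01 at 20 h and 1.46 at 30 h in strain 12 mixed culture, 1.07 and 1.40 in strain 12 single culture, and 1.03 and 1.53 in strain 11 single culture, each with an SE of 0.29 or 0.30 and an adjusted p of 3.51e-05 to 0.00624 by edgeR. In strain 11 mixed culture it was 0.85 and 0.79, with adjusted p of 0.0763 and 0.0946 (DESeq2: 0.0138 and 0.0201). The 3 rises at 30 h over 12 h kept their call in every alternative run. At 20 h the call was lost in strain 11 single culture without 12 h replicate 3 (adjusted p = 0.0658) or 20 h replicate 2 (0.0647) or with no filter (0.0579), and in strain 12 single culture without 12 h replicate 3 (0.0552) or 20 h replicate 3 (0.103). Genes of 4000 to 6000 bases had median changes of -0.11 to 0.28 in these 8 comparisons.

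The called changes of ROX1 and MOT3 over 12 h were falls at 20 h in single cultures and rises in mixed cultures. At 30 h over 12 h neither gene was called in single culture. Mean ROX1 at 12 and 30 h was 999 and 1086 CPM in strain 11 single culture, and 491 and 316 CPM in strain 12 single culture. For MOT3 the means were 229 and 166 CPM in strain 11, and 193 and 136 CPM in strain 12. From the 12 h level, ROX1 changed at 20 h by -1.41 in strain 12 single culture (SE 0.43, adjusted p = 0.0114) and by -1.01 in strain 11 single culture (SE 0.38, adjusted p = 0.0386). In strain 12 mixed culture it changed by 1.07 at 20 h (adjusted p = 0.0279) and by 1.15 at 30 h (adjusted p = 0.0197), and in strain 11 mixed culture by 1.16 at 30 h (adjusted p = 0.0453). MOT3 changed by -1.27 at 20 h in strain 11 single culture (adjusted p = 0.0450) and by 1.34 and 1.31 at 20 and 30 h in strain 12 mixed culture (adjusted p = 0.0102 and 0.0161). All p-values here are edgeR's. The ROX1 falls at 20 h lost their call in strain 12 single culture without 12 h replicate 1 (0.0656), and in strain 11 single culture without 12 h replicate 1 or 2 (0.150 and 0.0565) or 20 h replicate 1 or 3 (0.179 and 0.0503). The strain 11 fall was also lost with limma on log2 RPKM (0.110 and 0.119), with only the libraries compared (0.0605) and with DESeq2 (0.0504), and that of MOT3 there with the same settings and the block (0.0551 to 0.0700). Strain 12 mixed replicate 1 at 12 h, which had the lowest ROX1 (116 CPM, 15 reads) and MOT3 (62.0 CPM, 8 reads) of its group, bears on these rises: without it the adjusted p was 0.218 and 0.165 for ROX1 and 0.0878 and 0.104 for MOT3 at 20 and 30 h. The ROX1 rises were also lost without 20 h replicate 1 or 2 (0.176 and 0.0955) and 30 h replicate 1 or 2 (0.159 and 0.0854), with DESeq2 at 20 h (0.0592) and with limma at 30 h (0.0522 and 0.0574), and those of MOT3 without 20 h replicate 2 (0.0815), 30 h replicate 1 (0.314) or 12 h replicate 2 (0.0522 at 30 h). The values of ROX1 in strain 11 mixed culture (adjusted p 0.0741 to 0.228) and of MOT3 in strain 11 single culture (0.0555 to 0.164) lost their call when libraries were left out, the first with any of the 6 libraries and in limma (0.229 and 0.248), the block, exon counts and no filter (0.0539 to 0.0545), and the second with any but 12 h replicate 3.

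The remaining regulators showed no call in any comparison. UPC2 (chromosome IV, 889749 to 892490), the activator of sterol uptake genes, rested on 428 reads in all, and its group means ran from 52.1 to 159 CPM. The highest mean, strain 12 single culture at 20 h, was made of 96.9, 310.1 and 71.1 CPM, the middle library having 11 reads. MGA2 (chromosome IX, 416121 to 419462), which activates OLE1, had 1503 reads and group means between 156 and 319.9 CPM. Its 95% intervals for mixed minus single culture lay within -1.06 and 1.21 on the log2 scale. SUT1 (chromosome VII, 198144 to 199043), a regulator of sterol uptake, had 55 reads. Of these 41 were in the 18 mixed-culture libraries (13.6 per M reads, exact Poisson 95% interval 9.74 to 18.4) and 14 in the 18 single-culture libraries (4.89 per M reads, 2.67 to 8.20). SUT1 had at least 1 read in 15 of 18 mixed and in 7 of 18 single libraries. These intervals cover counting error only. Tested without the filter over 6400 genes, none of the 108 tests of SUT1, ANB1 and AAC3 was called (smallest adjusted p 0.110 by edgeR), and 4 had an unadjusted p under 0.05.

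Among the targets, HEM13 (chromosome IV, 546641 to 547627) was higher in strain 12 than in strain 11 on average over the times. At 20 h it had 315, 254 and 391 CPM in strain 12 single culture, against 103, 179 and 169.6 CPM in strain 11 single culture, without overlap (as held for 11.1% of all genes tested). In mixed culture at 12 h it had 349, 326 and 504 CPM in strain 12, against 165, 113 and 282 CPM in strain 11, again without overlap (28.3% of all genes). The log2 fold change of strain 12 over strain 11 was positive in all 6 comparisons (0.01 to 1.14), but none was called. The smallest adjusted p was 0.0637, for 1.02 (SE 0.34) in mixed culture at 12 h, and 0.0413 with the replicate number as a block, where the numbers pair the libraries. It was also 0.0457 with RLE factors and 0.0402 with DESeq2. With a library left out it was called without strain 11 mixed replicate 3 at 12 h (0.0161), strain 12 single replicate 1 at 12 h (0.0491) or strain 11 single replicate 1 at 30 h (0.0484). Averaged over the times, in contrasts added after the values had been seen, the difference was 0.85 in single culture (SE 0.23, adjusted p = 0.0336 by edgeR, where 1.47% of all genes were called). In mixed culture it was 0.64 (SE 0.22, adjusted p = 0.0483, where 9.75% were called). Neither average is firm. The single-culture one lost its call under 11 of 27 alternatives, 9 of them left-out libraries (adjusted p 0.0533 to 0.114): strain 12 replicate 3 at 12 h, 3 at 20 h and 2 and 3 at 30 h, and strain 11 replicates 1 and 2 at 12 h, 1 at 20 h and 1 and 2 at 30 h. The mixed-culture one lost it under 20 of 27 alternatives (adjusted p up to 0.121), 13 of them left-out libraries, that is, every one of the 18 except strain 12 replicates 1 and 2 at 12 h and 3 at 30 h, and strain 11 replicates 3 at 12 h and 2 at 30 h.

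HEM13 was called lower than at 12 h in 3 of 8 comparisons with the later times. Of all genes tested, 28.8 and 29.3% were called in strain 11 single culture at 20 and 30 h, and 23.8% in strain 12 mixed culture at 30 h. In strain 11 single culture it had 319, 323 and 370.3 CPM at 12 h, 103, 179 and 169.6 CPM at 20 h, and 135, 99.8 and 294 CPM at 30 h. Every later library lay below every 12 h library, and 39.7% of all genes tested did not overlap at 20 over 12 h and 40.4% at 30 over 12 h. The log2 fold change over 12 h was -1.18 at 20 h (SE 0.40, adjusted p = 0.0206 by edgeR) and -1.03 at 30 h (SE 0.38, adjusted p = 0.0345). In strain 12 mixed culture it was -1.04 at 30 h (SE 0.37, adjusted p = 0.0312). The other 5 changes over 12 h were also negative, from -0.66 to -0.03, and were not called. The call at 20 h was lost without 20 h replicate 1 (adjusted p = 0.103), and the 30 h call in strain 11 without 12 h replicate 1 or 3 (0.0527 and 0.0717) or 30 h replicate 1 or 2 (0.117 and 0.240) or with only the libraries compared (0.0958). In strain 12 mixed culture it was lost without 12 h replicate 3 (0.157) or 30 h replicate 1 or 3 (0.119 and 0.0564) or with limma (0.0916 and 0.0948). HEM13 did not pass in any comparison of mixed with single culture (-0.79 to 0.20).

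OLE1 (chromosome VII, 398631 to 400163) had group means from 2569 to 5049 CPM, a 1.97-fold span, against 2.05-fold for MGA2 and 6.13-fold for ROX1. In all 6 comparisons of mixed with single culture the log2 fold change of OLE1 was negative, -0.43 to -0.23, and none was called (smallest adjusted p 0.496). The 95% intervals lay within -0.98 and 0.33. In strain 11 single culture OLE1 had 2418, 3384 and 3232 CPM at 12 h and 3228, 6747 and 5173 CPM at 20 h, with a log2 fold change of 0.74 (SE 0.28, adjusted p = 0.0382 by edgeR). The groups overlapped, and the call was lost without any of 12 h replicates 1 to 3 or 20 h replicates 2 and 3 (adjusted p 0.0654 to 0.380), with no filter (0.209) and with limma (0.0513 at either pseudocount).

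ANB1 (chromosome X, 524901 to 525374) and AAC3 (chromosome II, 415977 to 416900), hypoxic genes that are low in air, were barely detected. ANB1 had 41 reads in the 36 libraries and AAC3 had 58. Of the ANB1 reads 30 fell at 12 h (9.04 per M reads, exact Poisson 95% interval 6.10 to 12.9), 9 at 20 h (6.44, interval 2.94 to 12.2) and 2 at 30 h (1.71, interval 0.207 to 6.17). Of the AAC3 reads 43 fell at 12 h (12.96 per M reads, interval 9.38 to 17.5), 6 at 20 h (4.29, interval 1.58 to 9.34) and 9 at 30 h (7.69, interval 3.52 to 14.6). The intervals of ANB1 at 12 and 30 h overlap narrowly and no test called it. ANB1 shares 90.9% of its coding letters with TIF51A, and their longest identical run is 43 bases, shorter than the 75 bases of a read. The ANB1 reads amounted to 0.263, 0.285 and 0.0779% of the TIF51A reads at 12, 20 and 30 h, so a small rate of misplaced reads and a low expression of ANB1 cannot be told apart at this depth. AAC3 shares 76.4% with PET9, with an identical run of at most 20 bases.

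**Figure D4:**
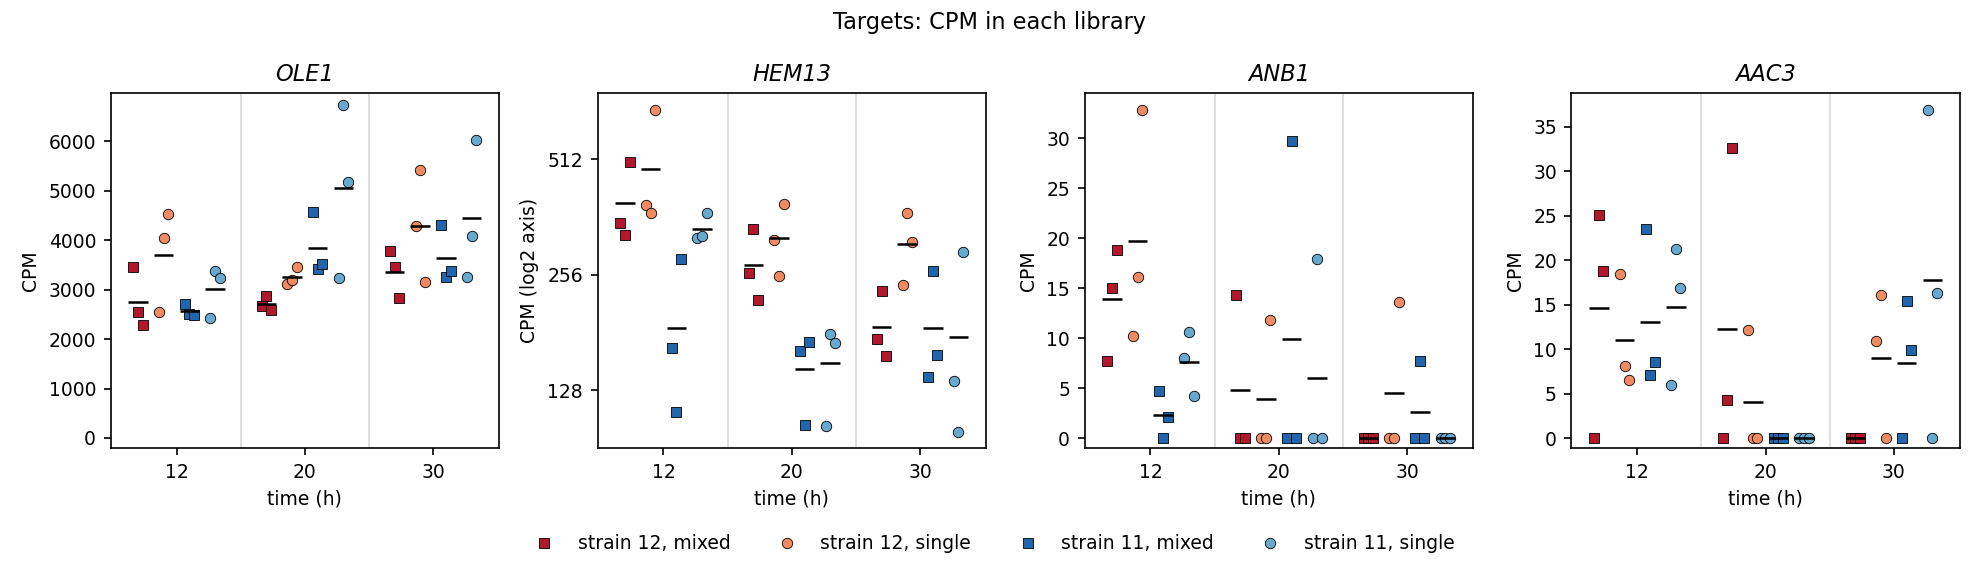
CPM of OLE1, HEM13, ANB1 and AAC3 in each library by time, with the groups from left to right as strain 12 mixed, strain 12 single, strain 11 mixed and strain 11 single (points: 3 libraries, line: mean). HEM13 is on a log2 axis and the others on linear axes from 0. Most ANB1 libraries after 12 h are at 0.

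Between times, 18 of 84 tests of the list were called (21.4%, where 14.04% of all genes tested were called), 12 of them higher at the later time and 6 lower, and 28 had an unadjusted p under 0.05. They comprise 6 of HAP1, 5 of ROX1, 3 each of MOT3 and HEM13, and 1 of OLE1. In strain 11 single culture 5 of 7 genes were called at 20 h over 12 h, where 28.8% of all genes were, and in strain 12 mixed culture 4 of 7 at 30 h and 3 of 7 at 20 h over 12 h, where 23.8% were at either time. In the other comparisons with 12 h, 2 of 7 were called in strain 11 single culture at 30 h (29.3% of all genes), 2 in strain 12 single culture at 20 h (25.7%), 1 at 30 h (23.4%), 1 in strain 11 mixed culture at 30 h (6.51%) and 0 at 20 h (5.78%). None was called between 30 and 20 h, where 0 to 0.708% of all genes tested were called. For the averages over the times, 8 of 35 tests were called (22.9%, where 6.08% of all genes tested were called). These averages were chosen after the values of the listed genes had been seen, so the 2 shares cannot be compared as a test.

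The wider pathway was followed by lists of its other genes. Of 14 aerobic and haem-activated genes, all were tested, and over the 12 time comparisons 27 of 168 tests were called higher and 4, all of TIF51A, lower. CTT1, the cytosolic catalase that Hap1 activates, was higher at 20 than at 12 h by 3.12 in strain 12 single culture (adjusted p = 3.85e-12) and by 2.97 in strain 11 single culture (1.03e-11). CYB2, lactate dehydrogenase, was higher at 30 than at 12 h by 2.77 in strain 12 single culture (3.40e-07). TIF51A, the aerobic partner of ANB1, was lower at 30 than at 12 h by -1.19 in strain 12 single culture (0.00207) and by -1.24 in strain 11 single culture (0.000966). YHB1, the haem-containing flavohaemoglobin that detoxifies nitric oxide, was higher in strain 12 than in strain 11 in all 6 comparisons (2.33 to 6.64). It accounted for all 6 of the 84 strain tests called in this list (7.14%, where 1.38% of all genes tested were called). Between mixed and single culture 3 of 84 were higher and 2 lower, all in strain 11 (5.95%, where 3.58% of all genes tested were called). In strain 11 YHB1 was higher in mixed culture at 12 h by 2.85 (adjusted p = 9.95e-05) and COX4, a cytochrome oxidase subunit, lower by -1.21 (0.0230). YHB1 is a gene the study itself named from these libraries, and its level differs between the strains. Carry-over of strain 12 RNA and a change of YHB1 in strain 11 cells thus cannot be told apart in strain 11 mixed culture. The part of that carry-over was not tested.

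Of 8 other hypoxic genes 7 were tested. Over the time comparisons 14 of 84 tests were higher and 4 lower. All 4 lower ones were of ERG11, lanosterol demethylase, an oxygen-using step of ergosterol synthesis, as in strain 12 single culture at 20 over 12 h (-1.16, adjusted p = 0.00144). CYC7, the hypoxic form of cytochrome c, outside the naming rule for its low count and chosen after its values were seen, was higher by 2.55 to 4.04 in 7 of the 8 comparisons with 12 h. FET4, a low-affinity iron carrier that Rox1 represses, was higher in strain 11 mixed than in strain 11 single culture at 12, 20 and 30 h by 2.66, 2.34 and 2.65 (adjusted p = 2.26e-05, 0.00447 and 0.000292), and lower in strain 12 than in strain 11 in mixed culture at 12 h (-2.75, adjusted p = 9.10e-05). The study picked FET4 from these libraries, so its direction is not independent evidence. Of 8 anaerobic sterol uptake and wall genes 5 were tested, with 9 of 60 time tests higher and 4 lower. DAN4, a wall mannoprotein, was higher at 30 than at 12 h by 2.71 in strain 12 mixed culture (adjusted p = 3.78e-05), and PDR11, a sterol importer, by 1.91 in strain 11 single culture (0.000585). The 4 lower calls were of TIR2 and TIR3 in strain 12 mixed culture, genes named after their values were seen.

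Of 10 corepressors, partners and paralogs 7 were tested. TUP1, the corepressor that works with Rox1 and Mot3, was lower at 20 than at 12 h by -1.24 in strain 12 single culture (adjusted p = 0.00211) and by -1.63 in strain 11 single culture (9.13e-05). Its partner CYC8 was lower by -1.14 in strain 11 single culture (0.0143). HAP4, the limiting subunit of the respiratory activator complex, was higher at 30 than at 12 h by 1.56 in strain 12 mixed culture (6.57e-05). No gene of this list was called between mixed and single culture or between strains. Of 6 fatty acid synthesis and elongation genes, all tested, 16 of 72 time tests were lower and 0 higher. ACC1 and FAS1, which begin and carry out fatty acid synthesis, were lower at 30 than at 12 h in strain 12 single culture by -0.76 and -0.77 (adjusted p = 0.0234 and 0.0144). ELO2, a fatty acid elongase named after its values were seen, accounted for 8 of the 16, lower at 20 and 30 h in every culture (-3.29 to -1.40). Of 7 further genes of haem synthesis 6 were tested and 2 of 72 time tests were higher, HEM14 by 1.11 in strain 12 mixed culture (adjusted p = 0.0321) and HEM1 by 0.75 in strain 12 single culture (0.0434), both at 30 over 12 h. Shares of called tests over the times were 18.5% for aerobic, 21.4% for other hypoxic, 21.7% for anaerobic, 9.52% for corepressor, 22.2% for fatty acid and 2.78% for haem synthesis genes, where 14.04% of all genes tested were called. Between mixed and single culture they were 5.95, 9.52, 0, 0, 0 and 2.78% in the same order, where 3.58% of all genes were. Between the strains they were 7.14, 4.76, 6.67, 0, 0 and 0%, where 1.38% were. The lists were chosen with earlier results of these data known, so these shares carry no test. All adjusted p-values in these lists are edgeR's.

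The genes whose group means ran most like those of the targets were sought among 1703 genes with a mean count of at least 20. Over the 12 group means of log2 CPM, OLE1 was closest to TRX2 (thioredoxin, r = 0.87), APE4 (0.85) and ZTA1 (0.81). HEM13 was closest to SRL1 (a mannoprotein, r = 0.88), YOR248W (0.83), which overlaps SRL1 on the same strand, and GAS1 (a wall glucanosyltransferase, 0.83). These r values describe 12 points that share library depth and time, and carry no test.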

How the data were processed

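RNA of sorted cells was amplified and sequenced by the authors on a SOLiD instrument, and 75-base reads were aligned to Saccer2. They deposited counts of reads on genes and on exons, and RPKM values per gene and library. Cuffdiff and Cufflinks 1.3.0 stand in the submitters' processing notes, and the use of strand in counting is not given in the sources used here. None of the 10 genes overlaps another in the tables.

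The deposited counts were tested with edgeR 4.0.16 (R 4.3.3): filterByExpr (3670 of 6717 genes), TMM factors (0.888 to 1.08), 1 coefficient for each of 12 groups, the quasi-likelihood test (two-sided) and Benjamini-Hochberg adjustment over all genes of a contrast at 0.05. The common dispersion was 0.0833. The step was tested on simulated counts. No single-gene permutation test was run, since 3 libraries against 3 allow no exact p below 0.1. Contrasts were 6 of culture, 6 of strain, 12 of time and 7 of responses. Averages over the times were added after the values had been seen.

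The members and lists were chosen with earlier results of these data known. All 10 members are named. From each list, up to 3 genes per kind of comparison may be named, those with the largest fold changes among calls with a mean count of at least 20, besides paralogs of members. Alternatives were DESeq2 1.42.0, RLE factors, no filter, exon counts, only the libraries compared, the replicate number as a block, limma 3.58.1 on log2(RPKM + 1) or log2(RPKM + 0.1), a log2 fold change of at least 1, and each of 36 libraries left out.

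Replicate numbers are shared by all groups. Deviations of same-numbered libraries from their group means correlated by over 0.1 in all 3 pairs only between the strains at 12 h, in single culture (0.453, 0.288 and 0.380) and mixed culture (0.196, 0.104 and 0.173). The pairing there comes from these correlations, since the labels do not say what a number shares.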

Additional observations from a re-analysis of the deposited data

Results flagged for a closer look

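The difference between responses to mixed culture passed in 2 of 49 planned tests of the listed genes, and in an average added after the values had been seen. In strain 12 the response of ROX1 at 20 h exceeded that at 12 h by 2.47 on the log2 scale (adjusted p = 0.00840 by edgeR), with 1.79 at 20 h and -0.68 at 12 h. For MOT3 in strain 12 the same difference was 2.44 (adjusted p = 0.0292), with 1.84 and -0.60. Of all genes tested, 2.45% were called in this contrast. The MOT3 call was lost under 8 of 21 alternatives. Averaged over the times, the response of ROX1 in strain 11 minus that in strain 12 was -1.43 (adjusted p = 0.00599), with -0.69 in strain 11 and 0.74 in strain 12. In this added contrast 2.53% of all genes were called, and with limma on log2 RPKM the adjusted p of ROX1 was 0.113 and 0.130.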

How the results depend on the processing

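No direction of the 33 called results turned under any alternative. Under other settings 50 of 297 values lost their call, and with a library left out 96 of 324 did. The count of calls between the strains was 1, and it was 2 with RLE factors, 3 with DESeq2, 0 with limma at either pseudocount, and 0 to 2 with a library left out. Calls between mixed and single culture numbered 4, and 2 to 5 with a library left out. The lowest value, 2, came without strain 12 single replicate 1 or 2 or mixed replicate 1 or 2 at 20 h. Different responses numbered 2, 1 with limma at either pseudocount, and 1 to 3 with a library left out. Averages over the times numbered 8, and 4 or 5 with limma (pseudocount 1 or 0.1), 2 at a log2 fold change of at least 1, and 6 to 10 with a library left out. Calls between times numbered 18, 12 with limma at either pseudocount, and 13 to 18 with a library left out. The stricter fold demand lowers a count by construction. For the other settings the cause was not tested.

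With the replicate number as a block, 2 calls were made between the strains, the added one being HEM13 in mixed culture at 12 h, where the numbers pair the libraries (1.11, adjusted p = 0.0413). HEM13 was also called there with RLE factors (0.0457) and with DESeq2 (0.0402), which do not use the replicate number. Where the numbers do not pair them, the block ended the calls of MOT3 in strain 12 at 20 h (adjusted p = 0.0731), of MOT3 in strain 11 single culture at 20 over 12 h (0.0551) and of ROX1 in strain 11 mixed culture at 30 over 12 h (0.0545). It changed no other call.

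Depth limits SUT1, ANB1 and AAC3, with 55, 41 and 58 reads in 36 libraries.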
